A study of Mus musculus with 2 samples.

Results

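Vascular smooth muscle cells of mouse ear skin are described here through 527 cells, 296 from a control library and 231 from an allergic contact dermatitis (ACD) library, out of 23878 cells kept from both. A member had at least 3 unique molecular identifiers (UMIs, each standing for 1 captured transcript) of *Myh11*, at least 10 of *Acta2*, at least 1 of *Cnn1*, *Pln*, *Rergl* and *Kcnmb1* together, and none of *Ptprc* or *Pecam1*, the pan-leukocyte and endothelial genes. The cells were thus chosen by measured UMI counts of these 8 genes, whose values are given as a description. The gate asks for smooth muscle genes and does not test whether a cell came from a vessel, so smooth muscle of other skin structures cannot be told apart. The selected cells are called VSMC-like below.

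Single-cell transcriptomes were taken from ear skin of ICR mice that were 7 to 8 weeks old. ACD mice were sensitized on the dorsal skin with 1.0% 2,4-dinitrofluorobenzene (DNFB), a hapten that binds skin proteins, and ACD was elicited on day 6 with 0.2% DNFB on the ears, which were collected 60 hr later. Control mice gave the other library. The skin was dissociated with collagenase D and DNase1, depleted of dead cells and run on a 10x 3′ v2 assay, and the number of mice behind each library is not given in the sources used here. With 1 library per condition there was no replicate, so the conditions could not be tested against each other, and every 95% interval below covers counting error only.

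Vascular smooth muscle cells wrap arteries, arterioles and venules and set vessel diameter by contraction of actin and smooth muscle myosin, which is switched on by calcium and myosin light chain kinase. Their contractile program is driven by serum response factor with its co-activator myocardin and is maintained by Notch signals from the endothelium. Interferon-γ, a product of type 1 lymphocytes, acts on most tissue cells through a receptor of 2 chains, and raises guanylate-binding proteins, immunity-related GTPases and the machinery that loads peptides on MHC class I.

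Smooth muscle genes outside the gate were high in the members. A list of 12 smooth muscle genes that the gate did not use (*Tagln*, *Myl9*, *Lmod1*, *Mylk*, *Smtn*, *Tpm2*, *Kcnk3*, *Map3k7cl*, *Des*, *Synpo2*, *Mustn1* and *Myocd*) summed to 29049 UMIs per 1000000 in control and 33851 in ACD members, against 367 and 296 in all other kept cells. *Tagln*, *Myl9* and *Tpm2* each had a UMI in all 296 control and all 231 ACD members. *Myh11* counts ran from 3 through a median of 16 to 165 per control member and from 3 through 24 to 214 per ACD member, and *Acta2* counts from 10 through 57.5 to 692 and from 12 through 118 to 752. At the edge of the gate, 17 control and 6 ACD members had 3 or 4 *Myh11* UMIs, with median *Acta2* counts of 21 and 49.5, whereas 8 control and 4 ACD cells fell outside through 1 or 2 *Myh11* UMIs alone, with medians of 18.5 and 29. A *Ptprc* UMI left out 3 control and 19 ACD cells, and a *Pecam1* UMI 2 and 4.

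Markers of other cell types were also counted in the members. The 10 fibroblast markers summed to 8725 UMIs per 1000000 in control and 3299 in ACD members, and to 30907 and 16194 in all other cells of the 2 libraries. *Pdgfra*, the fibroblast receptor gene, had a UMI in 13.5% of control (95% exact interval 9.83 to 17.9%) and 8.23% of ACD members (5.02 to 12.5%). With each cell thinned to 2000 UMIs the shares were 6.76% and 1.73%, beside 3.26% and 1.50% of T/NK/ILC, which should lack the gene. The 10 T/NK/ILC markers, of which 9 are in the annotation, summed to 157 and 242. *Thy1* alone, which pericytes also carried at 373 and 551, held 155 and 219.9 of these, while *Cd3e*, *Cd3d*, *Gzma*, *Il7r*, *Cd8a* and *Cd4* were at 0 in control and *Il7r* and *Cd4* at 0 in ACD. Endothelial markers summed to 177 and 278. *Esam* alone, which pericytes also carried at 243 and 260, held 162 and 246 of these, while *Emcn* and *Cldn5* were at 0 in both libraries. Myeloid markers summed to 8.75 and 54.5, and the 12 pericyte markers to 2648 and 3581, compared with 16775 and 9998 in gated pericytes. The 10 chondrocyte markers summed to 917 and 593. Erythroid genes differed most between the libraries, at 72.5 in control and 5157 in ACD members beside 3783 and 6762 in all other cells, and 98.4% of the ACD hemoglobin UMIs lay in 5 members.

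The members of the 2 libraries differed in depth. Control members held 2056257 UMIs in all, with 2124 in the shallowest cell and a median of 5953.5, and ACD members held 2550741, with 2391 in the shallowest and a median of 10240.0. Of 50 cell barcodes that both libraries share, each library had 1 among its members. The median number of genes was 2220.5 in control and 3005 in ACD, and the median mitochondrial share 4.14% and 4.06%. VSMC-like cells made up 2.42% of kept control cells (exact interval 2.16 to 2.71%) and 1.98% of kept ACD cells (1.74 to 2.25%), for a log2 ratio of -0.29 (95% interval -0.55 to -0.04). A stricter gate of at least 6 *Myh11*, 20 *Acta2* and 3 further UMIs kept 181 and 182 cells, and the log2 ratio of the shares was then 0.074, while it ran from -0.39 to -0.17 under the other alternatives for cells and gates. Such a share also moves with the number of cells of every other type in the library.

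Genes named below for their role beyond the rule given with the processing were chosen after their values were seen. Each gene was followed as its UMI sum over all members of a library per 1000000 UMIs of those members, called its level below. Among 7584 genes with at least 50 UMIs over both libraries, 59 (0.778%) had an at least 2-fold higher and 92 (1.21%) an at least 2-fold lower level in ACD after 10 UMIs per 1000000 were added to both sides, and the median log2 ratio was -0.08. The 95% counting interval of the log2 ratio lay above 0 for 1032 of these genes (13.6%) and below 0 for 1699 (22.4%), whatever the size of the difference. The higher genes were mostly of one kind. Of the 59, 36 belonged to the lists of MHC class I, MHC class II, interferon-inducible GTPase, other interferon-stimulated or interferon signalling genes. Those lists held 20, 2, 10, 31 and 18 of the 7584 genes tested, some in more than 1 list. Among the 59 higher genes, 2 were scarcer in ACD members than in all other cells by more than 3-fold. Of the 92 lower genes, 47 were scarcer in control members than in the other cells by more than 3-fold, and 20 had a higher level there than in the other cells. The lists of matrix genes and matrix proteases, with 64 and 23 genes tested, held 12 of the 92.

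**Figure D1:**
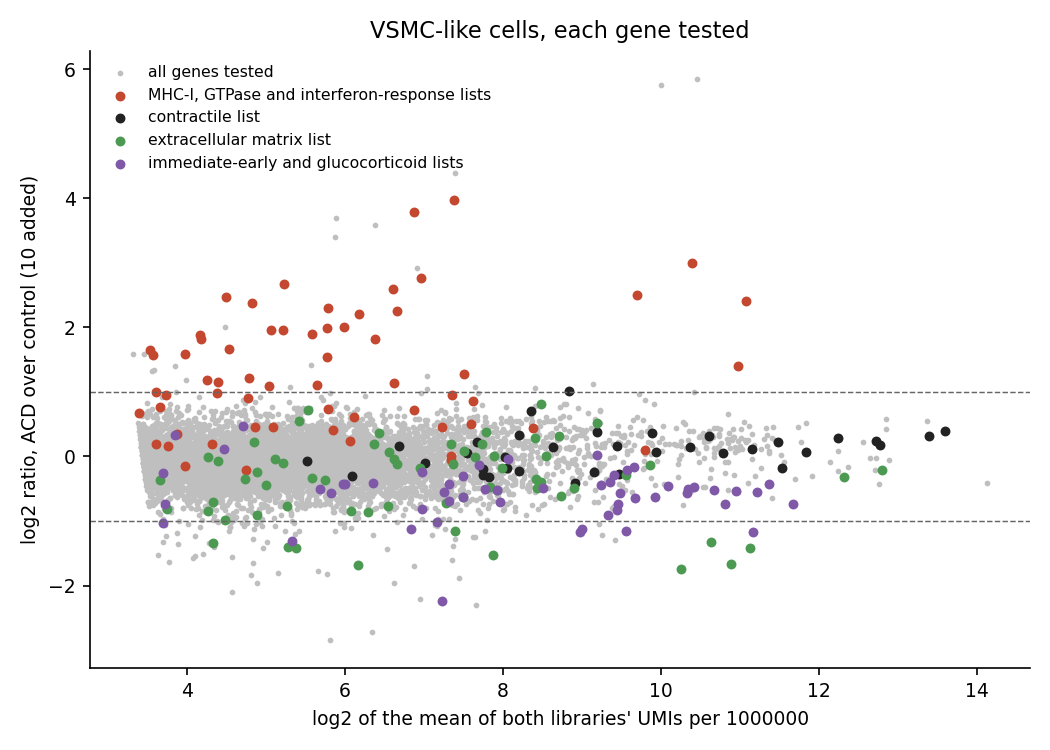
Each point is a gene of the VSMC-like cells, with the log2 of its mean level (UMIs per 1000000) on the x axis and the log2 ratio of ACD over control, with 10 added on both sides, on the y axis. Dashed lines mark 2-fold, and most MHC class I, GTPase and interferon-response genes (red) lie above 0 whereas contractile genes (black) stay between the lines, with *Actg2* just past the upper one at 1.02.

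The MHC class I pathway, which shows peptides from inside the cell to CD8+ T cells, was higher in ACD as a list. Of its 27 genes in the annotation 20 were tested, of which 12 were called higher and none lower. An interval above 0 was found for 17, and the median log2 ratio was 1.21. Over all genes 0.778% were called higher and 13.6% had an interval above 0. *B2m*, which encodes the light chain shared by all class I molecules, was at 293 (269.8 to 317) in control and 2406 (2347 to 2467) in ACD, for a log2 ratio of 3.04 (2.92 to 3.16). The heavy chain genes *H2-D1* and *H2-K1* went from 675 to 3640.1 and from 243 to 1425, with log2 ratios of 2.43 (2.35 to 2.51) and 2.55 (2.42 to 2.69). The non-classical *H2-T23* and *H2-T22* had log2 ratios of 2.60 (2.20 to 3.01) and 1.89 (1.44 to 2.37). These genes were broadly carried, since the 5 richest ACD members held 9.63% of the *B2m*, 8.92% of the *H2-K1* and 8.09% of the *H2-D1* UMIs. Mouse class I heavy chain genes are near copies of each other, so reads may be split among them, which makes the values of single *H2* genes less certain.

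The immunoproteasome is a form of the proteasome that cuts peptides suited to class I, and its *Psmb8* had the highest ratio in this pathway. *Psmb8*, which lies within the MHC at chr17:34197721-34201454 (GRCm38), had 23 UMIs in 22 control members and 823 in 171 ACD members, levels of 11.2 (7.09 to 16.8) and 323 (301 to 345) and a log2 ratio of 4.85 (4.25 to 5.52). *Psmb9* and *Psmb10*, the other 2 subunits, were at 2.92 and 12.2 in control and 72.5 and 98.8 in ACD, with log2 ratios of 4.64 (3.49 to 6.10) and 3.02 (2.43 to 3.68). All 3 subunits were therefore scarce in control members and readily counted in ACD members. The proteasome activator genes *Psme1* and *Psme2* had smaller log2 ratios of 1.36 (1.13 to 1.59) and 1.02 (0.79 to 1.25).

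Peptide transport and loading followed at lower ratios. *Tap1* and *Tap2*, which encode the 2 chains of the peptide transporter, had log2 ratios of 2.82 (2.13 to 3.58) and 1.36 (0.93 to 1.81), and *Tapbp*, the tapasin gene that bridges the transporter and class I, had 1.27 (0.97 to 1.59), a call lost without the members that carry a pericyte gene. General chaperones of the endoplasmic reticulum stood apart from them. *Canx*, calnexin, was at 161 and 163 with a log2 ratio of 0.01 (-0.20 to 0.22), and *Pdia3*, a disulfide isomerase of the loading complex, had -0.05 (-0.26 to 0.16). *Calr*, calreticulin, was between them and the inducible genes at 0.45 (0.30 to 0.60).

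**Figure D2:**
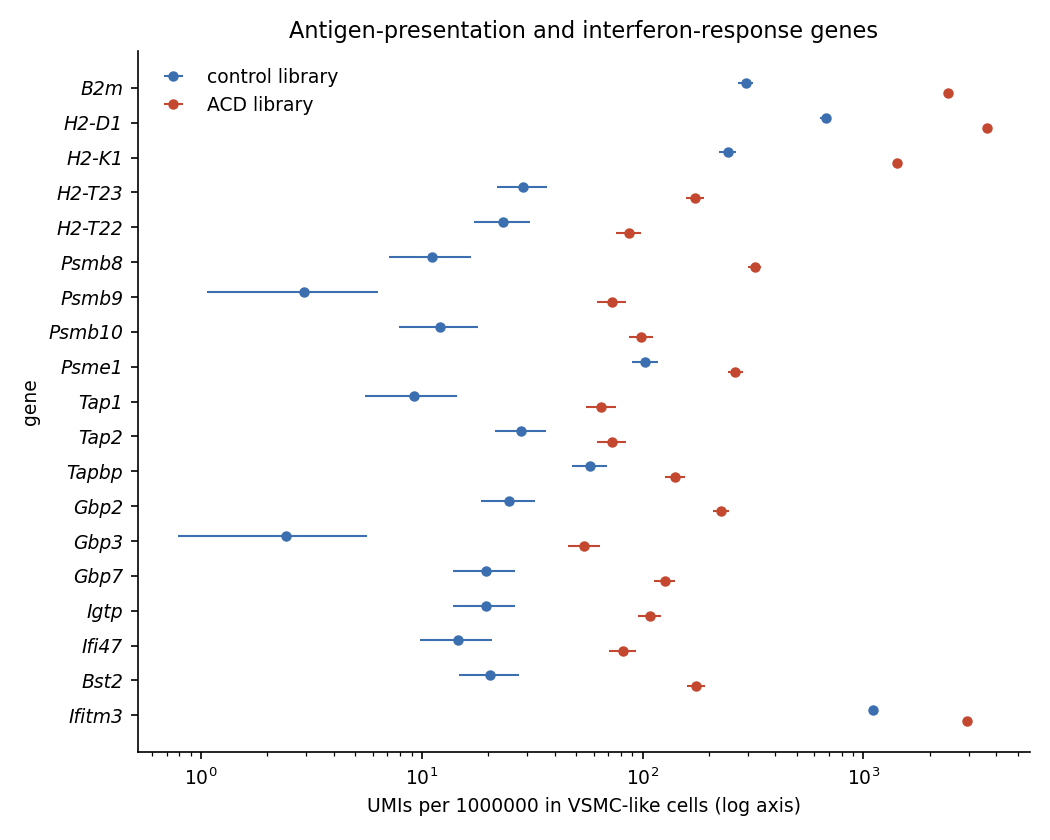
The level of each gene in VSMC-like cells is shown on a log axis as UMIs per 1000000 in the control and ACD library, with exact 95% counting intervals as bars. The genes were picked, and genes of small difference such as *Canx*, *Pdia3*, *Ifitm2* and *Isg15* are not shown. The intervals of the 2 libraries overlap for none of the genes shown, which is in part set by that choice. Levels run from 2.43 for *Gbp3* in control to 3640.1 for *H2-D1* in ACD.

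Interferon-inducible GTPases, which attack the vacuoles of intracellular microbes, were the list with the highest median, 2.11. Of 19 in the annotation, 10 reached 50 UMIs over both libraries, and all 10 had an interval above 0, with 8 called higher. Such an interval was found for 13.6% of all genes, and 0.778% were called higher. *Iigp1*, *Gbp3*, *Gbp4* and *Gbp5* were among those that reached 50 UMIs only through the ACD library. The median and counts of this list are therefore in part set by that minimum. *Gbp2* was at 24.8 (18.5 to 32.6) in control and 226 (208 to 245) in ACD, for a log2 ratio of 3.19 (2.77 to 3.63), and had a UMI in 40 of 296 and 118 of 231 members. *Igtp*, *Ifi47* and *Gbp7* had log2 ratios of 2.48 (1.99 to 2.99), 2.48 (1.93 to 3.09) and 2.69 (2.22 to 3.21). *Iigp1* had a still higher ratio, 4.97 (4.24 to 5.82), and 25.4% of its ACD UMIs came from 5 members. *Gbp4* had no UMI in control and 115 in ACD, at least 30.9-fold higher when control was set at a floor of 3 UMIs in the library and the ACD count taken as it stood, while the exact interval of the log2 ratio began at 4.63. Of these UMIs 63.5% lay in 5 members. *Gbp3* and *Gbp5* had 5 control UMIs each and log2 ratios of 4.49 (3.23 to 6.13) and 3.79 (2.52 to 5.45).

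Other interferon-stimulated genes formed a longer list of 67 in the annotation, of which 31 reached 50 UMIs over both libraries. Their median log2 ratio was 0.86, and 14 were called higher and none lower, where 0.778% and 1.21% of all genes were. *Ifitm3*, a membrane protein that restricts virus entry, was at 1107 (1062 to 1153) in control and 2937 (2871 to 3004) in ACD, for a log2 ratio of 1.41 (1.34 to 1.48), and had a UMI in 291 of 296 and all 231 ACD members. *Bst2*, the tetherin gene that holds budding virus at the cell surface, had a log2 ratio of 3.09 (2.64 to 3.59). Low genes of the list were almost absent from control members, where *Ifit1*, *Zbp1*, *Ifit3* and *Rtp4* had 1, 2, 4 and 6 UMIs, against 58, 58, 87 and 73 in ACD. These genes reached the minimum of 50 UMIs only through the ACD library, so they could enter the list only as higher. Some genes usually grouped with these had smaller differences, with log2 ratios of 0.10 (0.02 to 0.19) for *Ifitm2* and 0.49 (0.27 to 0.72) for *Isg15*. *Ifitm1* had a log2 ratio of 2.12 (1.74 to 2.53), and 54.3% of its ACD UMIs lay in 5 members. Its call was lost with the gate set after thinning.

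The start regions of 3 of these genes are printed because the list moved together and they hold the element through which interferon-activated factors act. Searching 300 bases around each RefSeq start (250 before and 50 after) on both strands for the interferon-stimulated response element (ISRE, the letters GAAA, any 2 bases, GAAA) found it in 15 of 40 matched genes called higher (37.5%), 3 of 69 called lower (4.35%) and 220 of 5837 matched among all genes tested (3.77%). It was in 7 of 8 matched GTPase genes, 11 of 20 other interferon-stimulated genes and 5 of 19 MHC class I genes. The gamma-activated site (GAS, letters TTCNNNGAA) was in 15% of the higher, 7.25% of the lower and 7.73% of all matched genes, and the CArG box that serum response factor binds in 5 of 29 matched contractile genes, gate genes included (17.2%), against 1.87% of all matched genes. Over all 27025 genes with a window the shares were 3.99%, 9.55% and 1.81% for ISRE, GAS and CArG. A match is a description of the letters, not a bound site, and overlapping matches were counted once per gene. The 250 bases before the start of *B2m* at chr2:122147437-122147686 (plus strand), *Igtp* at chr11:58199306-58199555 (plus strand) and *Bst2* at chr8:71537473-71537722 (minus strand) are given 5′ to 3′ from the RefSeq annotation of GRCm38.p6, with ISRE letters in capitals, which begin 139, 34 and 130 bases before the start.
B2m: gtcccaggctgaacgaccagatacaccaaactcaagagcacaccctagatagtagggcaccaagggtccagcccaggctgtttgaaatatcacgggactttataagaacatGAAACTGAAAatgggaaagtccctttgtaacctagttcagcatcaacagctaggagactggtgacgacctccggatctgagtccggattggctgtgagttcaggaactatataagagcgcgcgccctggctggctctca
Igtp: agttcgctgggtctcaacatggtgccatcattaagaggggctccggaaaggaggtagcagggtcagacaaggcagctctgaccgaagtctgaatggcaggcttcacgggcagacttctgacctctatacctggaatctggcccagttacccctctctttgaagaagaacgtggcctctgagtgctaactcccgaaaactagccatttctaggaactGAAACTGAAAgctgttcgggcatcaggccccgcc
Bst2: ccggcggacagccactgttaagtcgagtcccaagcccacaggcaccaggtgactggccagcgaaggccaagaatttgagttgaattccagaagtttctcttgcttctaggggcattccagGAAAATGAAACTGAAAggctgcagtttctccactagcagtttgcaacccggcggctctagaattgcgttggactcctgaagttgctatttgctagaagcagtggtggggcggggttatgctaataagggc
In *Bst2* the capitals are 2 overlapping matches. The 3 genes had log2 ratios of 3.04, 2.48 and 3.09 in VSMC-like cells.

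Receptors of the interferons were measured at low levels. *Ifngr1* and *Ifngr2*, the 2 chains of the interferon-γ receptor, were at 51.1 and 34.5 in control and 41.6 and 44.7 in ACD, with log2 ratios of -0.30 (-0.70 to 0.11) and 0.37 (-0.07 to 0.82), whose intervals include 0. Of the type I interferon receptor, *Ifnar2* had 0.55 (0.14 to 0.96) and *Ifnar1* -1.05 (-1.79 to -0.33). The list of 18 genes of receptors and signalling had a median of -0.08, with 2 called higher and none lower, where 0.778% and 1.21% of all genes were. One of the 2 was *Irf7*, a transcription factor of the interferon response (log2 ratio 1.83, 1.10 to 2.63). Its call was lost with the stricter gate and with the gate set after thinning. *Irf1*, another such factor, was at 547 in control and 502 in ACD (log2 ratio -0.12, -0.24 to -0.01), and the kinase genes *Jak1* and *Jak2* had -0.53 (-0.75 to -0.30) and -0.49 (-1.02 to 0.03).

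Receptors for other cytokines of contact allergy were read in the same way. *Il17ra* and *Il17rc*, which form the IL-17 receptor, had log2 ratios of 0.18 (-0.50 to 0.88) and 1.08 (0.43 to 1.78). *Il13ra1*, shared by IL-4 and IL-13, had 0.32 (0.03 to 0.62), and *Il4ra* had under 50 UMIs. *Il1r1* had -0.44 (-0.71 to -0.17), *Il1rap* -0.34 (-0.99 to 0.30) and *Tnfrsf1a* -0.01 (-0.26 to 0.24), and *Tnfrsf1b* had under 50 UMIs. Among 26 receptor genes of cytokines and growth factors tested, none was called higher and 1 was called lower, where 0.778% and 1.21% of all genes were. The lower gene was *Pdgfra*, a call lost without Scrublet calls and as a mean over cells.

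The chemokine genes called higher or lower had most of their UMIs in a few members. *Cxcl9*, a ligand that draws type 1 lymphocytes, had no UMI in control and 303 in 10 ACD members, at least 81.4-fold higher against the same floor, with an interval of the log2 ratio that began at 6.04. Of them 98.0% lay in 5 members, and the call was lost without the 5 richest. *Cxcl10*, a ligand of the same receptor, went from 9 UMIs in 4 members to 413 in 27 members, for a log2 ratio of 5.21 (4.27 to 6.35) with 87.2% in 5 members. After each cell was thinned to 2000 UMIs, 1.73% of ACD members had a *Cxcl9* UMI, beside 25% of ACD pericytes, 1.32% of ACD T/NK/ILC cells and 0.177% of ACD chondrocytes. Before thinning the shares were 4.33%, 29.5%, 2.94% and 2.39%. Fibroblasts and endothelial cells are not part of this comparison, and the paper reports the highest *Cxcl9* and *Cxcl10* expression in a fibroblast cluster. The *Cxcl9* level was 119 in ACD members and 140 over all other ACD cells. *Ccl7*, a monocyte chemokine, had a lower level in ACD, 61.6 against 343, with 84.3% of the control UMIs in 5 members and a log2 ratio of -1.47 (10 added) without the 5 richest members of each library, and its call was lost with at most 2 UMIs of other lineages and without Scrublet calls. *Cxcl1*, a neutrophil chemokine that was not called, was carried by 173 of 296 and 144 of 231 members, at levels of 893 and 1011 (log2 ratio 0.18, 0.09 to 0.27).

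Among secreted factors, *Il6* was at 248 (227 to 271) in control and 434 (408 to 459.9) in ACD, for a log2 ratio of 0.81 (0.65 to 0.96), and was above the level in all other cells of both libraries (41.2 and 49.5). *Serping1*, the inhibitor of complement component C1, had 1.15 (1.03 to 1.28) and was 1 of 2 genes called higher among 14 acute-phase and complement genes, a call that was lost without the members that carry a pericyte gene. The other, *Plac8*, had 4 control and 295 ACD UMIs with 63.7% of the latter in 5 members. Its levels were 1.95 and 116 in members but 800 and 3782.5 in pericytes. Of 13 leukocyte adhesion molecules none was called, and 2 had an interval above 0 and 2 below, where 13.6% and 22.4% of all genes did. *Icam1* was at -0.51 (-0.89 to -0.13) and *Vcam1* at -0.11 (-0.70 to 0.50). *Cd74*, the invariant chain of MHC class II, was called higher with 73.8% of its ACD UMIs in 5 members and a level of 41.9 against 839 in the other ACD cells, and the call was lost when free RNA was subtracted.

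Genes of the contractile apparatus differed by less than 2-fold, with 1 exception. Of 32 genes tested beside those of the gate, 1 was called higher and none lower, and the median log2 ratio was 0.09. An interval above 0 was found for 16 and below 0 for 9, where 13.6% and 22.4% of all genes had one. *Tagln*, transgelin, was at 9556 and 11957 (log2 ratio 0.32, 0.30 to 0.35), *Tpm2*, β-tropomyosin, had 0.24 (0.21 to 0.27) and *Myl9*, the regulatory light chain, 0.18 (0.15 to 0.21). *Lmod1*, leiomodin, lay on the other side at -0.42 (-0.54 to -0.29), while *Mylk*, the light chain kinase, and *Des*, desmin, had intervals that include 0, 0.05 (-0.02 to 0.11) and 0.07 (-0.02 to 0.15). The gene called higher was *Actg2*, γ-smooth muscle actin, which went from 299 (276 to 324) to 616 (586 to 648), for a log2 ratio of 1.04 (0.91 to 1.18). It passed 2-fold under 10 of 16 alternative settings, with a range of 0.75 to 1.26, and 34.6% of its control and 27.9% of its ACD UMIs came from 5 members. Of the gate genes, *Acta2* had a log2 ratio of 0.40, *Myh11* -0.17, *Cnn1* 0.14, *Pln* -0.06, *Rergl* 0.84 and *Kcnmb1* -0.12.

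Of 18 regulators of this program none was called in either direction, 4 had an interval above 0 and 5 below, where 13.6% and 22.4% of all genes did, and the median was -0.01. *Srf*, serum response factor, was at 59.3 and 59.2, for a log2 ratio of 0.00 (-0.36 to 0.35). *Myocd*, its co-activator myocardin, had -0.59 (-0.92 to -0.26) and *Klf4*, a factor that opposes myocardin, -0.91 (-1.02 to -0.81). *Notch3*, the Notch receptor of smooth muscle, had -0.10 (-0.21 to 0.01), its ligand gene *Jag1* 0.57 (0.37 to 0.77) and its target *Heyl* 0.58 (0.20 to 0.98). The Notch list of 18 genes had a median of 0.00, with none called.

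Channels and receptors of vessel tone were called about as rarely as genes in general. Of 38 channel and calcium genes, 1 was called higher, *Trpc6*, a cation channel that opens with diacylglycerol and a pericyte marker in the list used here, with 13 UMIs in control and 58 in ACD and a log2 ratio of 1.85 (0.96 to 2.84), past 2-fold under 8 of 14 alternatives. In this list 8 intervals lay above 0 and 11 below. Of 41 vasoactive genes none was called, with 10 intervals above 0 and 11 below. The shares over all genes were 13.6% above and 22.4% below. *Ednra*, the endothelin receptor, had 0.32 (0.07 to 0.57), *Gucy1a3* and *Gucy1b3*, the nitric oxide receptor subunits, 0.06 (-0.08 to 0.20) and 0.16 (-0.01 to 0.33), and *Npy1r*, a receptor of neuropeptide Y, 0.05 (-0.13 to 0.24). *Rgs5*, a brake on G protein signals that is also high in pericytes, had 0.40 (0.34 to 0.47). Chosen after their values were seen, *P2rx1*, an ATP-gated channel, had 1.07 (0.81 to 1.34), *Gja4*, the gap junction gene of connexin 37, 1.03 (0.83 to 1.24) and *Avpr1a*, the vasopressin receptor, -1.03 (-1.22 to -0.84), each just under 2-fold once 10 was added.

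A few further genes were higher in members than in all other cells pooled and also higher in ACD, and these too were chosen after their values were seen. *Higd1b*, a mural cell gene, went from 73.9 to 189 (log2 ratio 1.35, 1.09 to 1.63), against 7.64 in the other ACD cells pooled but 504 and 554 in pericytes, of which it is a marker, and passed 2-fold under 16 of 16 alternatives. *Olfr558*, an olfactory receptor gene that is also expressed in smooth muscle, went from 82.7 to 181 (log2 ratio 1.13, 0.87 to 1.39), and *Hspb2*, a small heat-shock protein of muscle, from 125 to 274 (log2 ratio 1.13, 0.92 to 1.34). They passed 2-fold under 11 of 16 and 12 of 16 alternatives. In all, 10 of the 59 higher genes had a level at least 10 times that of the other cells in the ACD library.

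Immediate-early genes, which respond within minutes to stimuli, were lower in ACD as a list. Of 39 tested, 3 were called lower and none higher, 34 had an interval below 0 and none above, and the median log2 ratio was -0.52, against -0.08 over all genes. Of all genes 1.21% were called lower, and 22.4% had an interval below 0 and 13.6% above. *Nr4a2*, an orphan nuclear receptor, was at 701 (665 to 738) in control and 306 (285 to 328) in ACD, for a log2 ratio of -1.20 (-1.32 to -1.07). *Nr4a3*, of the same family, had -1.10 (-1.34 to -0.86) and *Maff*, a small Maf factor, -1.23 (-1.50 to -0.96). *Nr4a2* passed 2-fold under 16 of 16 alternatives, *Maff* under 15 of 16 and *Nr4a3* under 12 of 16. The most abundant members of the list had smaller differences, with -0.74 (-0.79 to -0.70) for *Gadd45b*, -0.43 (-0.48 to -0.38) for *Junb*, -0.56 (-0.62 to -0.51) for *Jund* and -0.53 (-0.59 to -0.47) for *Fos*. Tissue dissociation also raises these genes, and its part in the result was not tested.

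Genes known to respond to glucocorticoids had the lowest median of the lists, -0.69, with 6 of 18 called lower, none higher and 16 intervals below 0. Over all genes 1.21% were called lower and 22.4% had an interval below 0. *Mt1* and *Mt2*, metallothioneins that bind zinc, went from 3195 to 1421 and from 707 to 319.9, log2 ratios of -1.17 (-1.23 to -1.11) and -1.14 (-1.27 to -1.02). *Cdkn1a*, the cell cycle inhibitor p21, went from 1049 to 467 (log2 ratio -1.17, -1.27 to -1.06), and *Zbtb16*, a transcription repressor, from 61.8 to 18.8 (log2 ratio -1.71, -2.23 to -1.22). All 4 passed 2-fold under every alternative that gave a value. *Cdkn1c*, a related inhibitor, had -2.47 (-2.77 to -2.18), with 54.9% of its control UMIs in 5 members and -1.62 (10 added) without the 5 richest. *Sult1a1*, a sulfotransferase with 43 and 13 UMIs, had -2.04 (-3.06 to -1.11) and passed 2-fold under 7 of 9 alternatives. *Tsc22d3* and *Per1*, direct targets of the receptor, were not called, at -0.45 (-0.67 to -0.24) and -0.50 (-0.85 to -0.16).

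*Tiparp*, which modifies the aryl hydrocarbon receptor with ADP-ribose, was in none of the gene lists and was among the 15 lowest by the rule for named genes. It was at 859 (819.7 to 900.4) in control and 362 (339 to 386) in ACD, for a log2 ratio of -1.25 (-1.36 to -1.13), with 7.13% and 10.2% of its UMIs in the 5 richest members and a range over alternatives of -1.39 to -1.13. Core clock genes pointed the same way at a smaller size, with a median of -0.43 over 15 genes, 10 intervals below 0 and none called. An interval below 0 was found for 22.4% of all genes. *Cry2*, a repressor of the clock, had -0.89 (-1.20 to -0.59) and *Bhlhe40*, another repressor, -0.55 (-0.80 to -0.31). The hour of collection of each library is not given in the sources used here.

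Nuclear-encoded subunits of the respiratory chain, which make ATP in mitochondria, were mostly higher in ACD. None of 76 tested was past 2-fold with 10 added, but 68 had an interval above 0 and none below, where 13.6% and 22.4% of all genes did. The median log2 ratio was 0.41. *Cox8a*, of complex IV, went from 1179 to 1547 (log2 ratio 0.39, 0.32 to 0.47) and *Atp5b*, of ATP synthase, from 787 to 1035 (log2 ratio 0.39, 0.31 to 0.49). *Ndufa3*, of complex I, was at the top of the list with 1.08 (0.74 to 1.42), and *Sdha*, of complex II, at its foot with -0.08 (-0.33 to 0.17). The median of the list ran from 0.33 to 0.51 over the alternatives.

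Matrix genes were mostly lower in ACD, and this depended on the settings. Of 64 matrix genes tested, 10 were called lower and none higher, with a median of -0.34, where 1.21% of all genes were called lower. *Col1a1* went from 1879 to 557 (log2 ratio -1.76, -1.84 to -1.67), *Col1a2* from 2887 to 907 (log2 ratio -1.67, -1.74 to -1.60), *Col3a1* from 2289 to 906 (log2 ratio -1.34, -1.41 to -1.27) and *Dcn*, decorin, from 3263 to 1217 (log2 ratio -1.42, -1.48 to -1.36). The 5 richest members held 55.6% of the control and 59.6% of the ACD *Col1a1* UMIs, and the level in all other cells was 5781 in control and 2152 in ACD. After removal of cells called as doublets by Scrublet the log2 ratios (10 added) of *Col1a1*, *Col1a2* and *Col3a1* were 0.81, 0.40 and 0.57 and the median of the list was 0.15, and the *Dcn* call was lost as well. That call was also lost over all deposited barcodes, those of *Col1a1*, *Col1a2* and *Col3a1* with the gate set after thinning, and that of *Col3a1* as a mean over cells. In members with at most 2 UMIs of other lineages that median was -0.039, with the gate set after thinning -0.12, as a mean over cells -0.11 and with free RNA subtracted -0.16. The 10 fibroblast markers summed to 8725 and 3299 UMIs per 1000000 in the members. They include *Col1a1*, *Col1a2* and *Dcn*, so that sum is not separate from the result above. Among the remaining markers *Ly6a* went from 159 to 230, whereas *Pdgfra*, *Lum*, *Dpt*, *Pi16*, *Mfap5* and *Cyp2f2* were lower in ACD members. The part of fibroblast RNA in the result was not tested.

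Over the same list of 64 genes 9 had an interval above 0 and 36 below, against 13.6% and 22.4% of all genes. Among genes of basement membrane, the sheet that surrounds each smooth muscle cell, chosen after their values were seen, both directions occurred. *Col4a1* and *Col4a2*, the main collagen IV chains, had log2 ratios of 0.53 (0.41 to 0.64) and 0.32 (0.18 to 0.45), *Col18a1* 0.84 (0.69 to 0.99), *Agrn*, agrin, 0.68 (0.25 to 1.12) and *Lamc1*, a laminin chain, 0.40 (0.22 to 0.59). *Hspg2*, perlecan, and *Lamb2*, another laminin chain, had 0.20 (-0.01 to 0.41) and 0.00 (-0.14 to 0.14), and *Nid1*, nidogen, *Col4a5* and *Lama2* had -0.44 (-0.81 to -0.07), -0.40 (-0.80 to -0.01) and -1.49 (-2.16 to -0.85). *Sparcl1*, a matricellular gene with a UMI in all members of both libraries, had -0.21 (-0.24 to -0.18) and *Eln*, elastin, -0.49 (-0.67 to -0.31). Matrix proteases and inhibitors had a median of -0.47 over 23 genes, with *Mmp2* and *Mmp3* called lower. The *Mmp2* call was lost with the gate set after thinning and without Scrublet calls, and the *Mmp3* call over all deposited barcodes. *Timp3* and *Adamts1*, abundant members of that list, had -0.45 (-0.54 to -0.37) and -0.48 (-0.55 to -0.41).

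**Figure D3:**
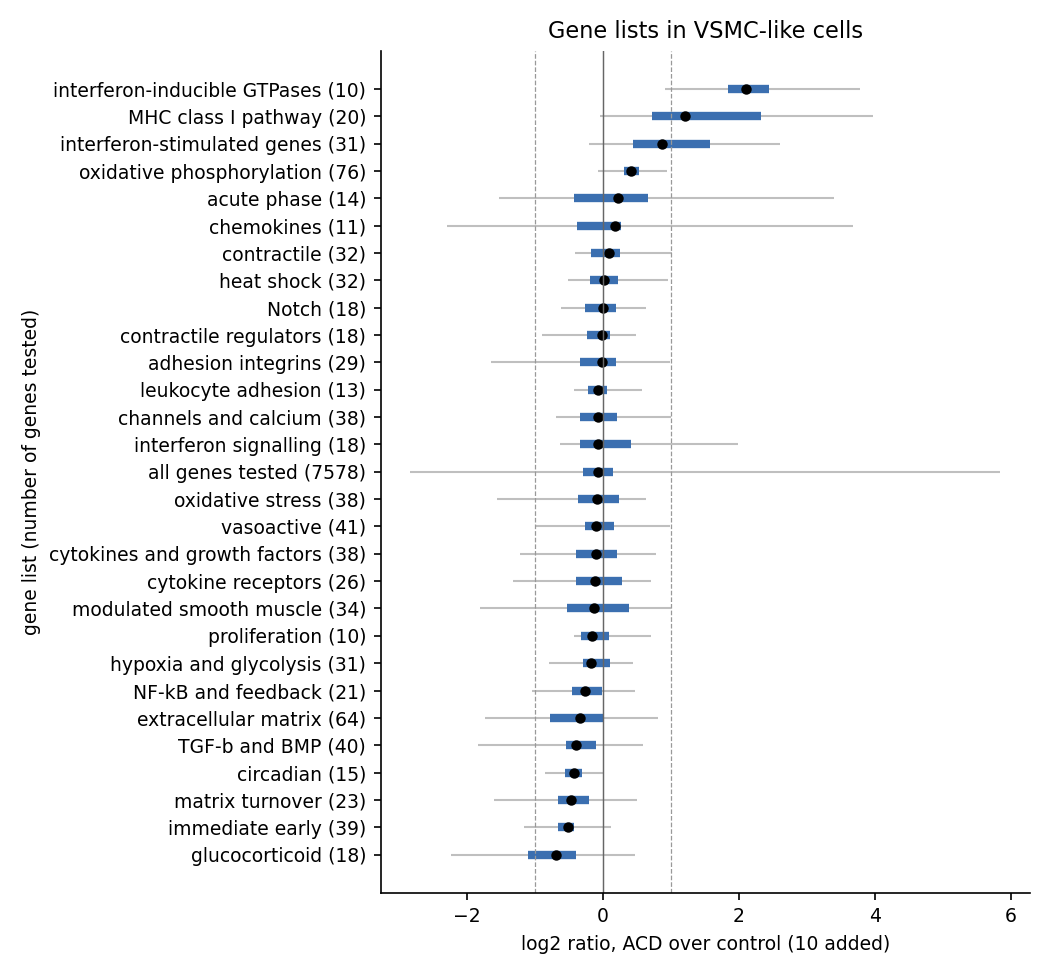
For each gene list the dot is the median, the thick bar the quartiles and the thin line the range of the log2 ratio (ACD over control, 10 added) in VSMC-like cells, with the number of genes tested in brackets and dashed lines at 2-fold. Medians run from 2.11 for the GTPases and 1.21 for the MHC class I pathway to -0.52 for immediate-early and -0.69 for glucocorticoid genes.

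For the lists that follow, 0.778% of all genes were called higher and 1.21% lower. TGF-β and BMP genes had a median of -0.39 over 40 genes with 2 called lower. NF-κB and feedback genes had -0.27 over 21 with 1 lower, and cytokines and growth factors -0.10 over 38 with 2 lower. Genes of hypoxia and glycolysis had -0.17 over 31, of proliferation -0.16 over 10 and of heat shock 0.01 over 32, with none called in any of the 3. Oxidative stress genes had -0.08 over 38, with 4 lower, of which *Mt1* and *Mt2* are also in the glucocorticoid list. Genes linked to a modulated smooth muscle state had a median of -0.14 over 34, which ran from -0.22 to 0.28 over the alternatives, while their sum was 25064 UMIs per 1000000 in control and 29317 in ACD. In that list *Lgals1*, galectin-1, was called higher (log2 ratio 1.01, 0.93 to 1.09) and *Cd34*, *Pdgfra* and *Dcn* were called lower, the last 2 not under all alternatives, as given with them. The *Lgals1* call held under 12 of 16 alternatives and was lost without members that carry a pericyte gene, without Scrublet calls, as a mean over cells and without the 5 richest members. *Vim*, vimentin, an abundant member of that list, had 0.58 (0.54 to 0.61). Genes of integrins and the dystroglycan complex had -0.01 over 29 with 1 lower, chemokines 0.18 over 11 with 2 higher and 1 lower, and acute-phase genes 0.23 over 14 with 2 higher and 2 lower.

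Several of the 15 highest and 15 lowest genes by the rule came from few members. *Hbb-bs*, a β-globin gene of red cells, went from 79 UMIs in control to 7093 in ACD, with 98.4% of the latter in 5 members, and had a log2 ratio (10 added) of 5.85 with and 0.38 without the 5 richest members of each library. *Prg4*, a lubricin gene of joints and cartilage surfaces, had 42 and 561 UMIs with 98.6% of the ACD UMIs in 5 members. On the lower side, *Sfrp2*, a secreted Wnt modulator of fibroblasts, had 88.1% of its control UMIs in 5 members, *Pmel*, a melanosome gene, all of them, and *Pappa2*, a protease of IGF-binding proteins, 85.1%. The *Sfrp2* and *Pmel* calls, like that of *Prg4*, were lost without the 5 richest members, and that of *Pappa2* there and as a mean over cells. *Taf4b*, a subunit of a transcription initiation complex, had a UMI in 35 control and 11 ACD members and a log2 ratio of -2.27 (-3.13 to -1.48), and *Fgf18*, a fibroblast growth factor, in 31 and 12 members, with -2.25 (-3.26 to -1.35). The *Taf4b* call was lost with the gate set after thinning and the *Fgf18* call as a mean over cells. In 5 others the 5 richest members held from 39.6% (*Mfap2*) to 62.1% (*Cpz*) of the control UMIs. *Bicc1*, an RNA-binding protein, had -2.24 (-2.60 to -1.90), *Aldh1a1*, a retinoic acid enzyme, -2.52 (-3.34 to -1.77), *Mfap2*, a microfibril gene, -1.85 (-2.37 to -1.36), *Postn*, periostin, -1.61 (-1.81 to -1.41) and *Cpz*, a carboxypeptidase, -2.17 (-3.07 to -1.35), each with a lower level in control members than in the other control cells. The calls of *Cpz* and *Postn* were lost as a mean over cells, that of *Cpz* also without the 5 richest members, those of *Postn* and *Mfap2* without Scrublet calls and that of *Bicc1* with at most 2 UMIs of other lineages.

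Thinning every member to 2000 UMIs, which left out none, set the cells of the 2 libraries at the same depth. The summed UMIs of the MHC class I list had a lowest value of 0, a median of 5 and a highest of 14 in control members, and 1, 18 and 66 in ACD members. Of 231 ACD members, 211 (91.3%) were above the control median and 142 (61.5%) above the highest control member, so the difference lay in most cells of the library, while the cells overlapped. The GTPase list was at 0 in 79.7% of control and 46.8% of ACD members, with a highest value of 4 in control and 28 in ACD. *Psmb8* had a UMI in 2.36% of control and 31.6% of ACD members after thinning and in 7.43% and 74.0% before it, and *B2m* in 39.2% and 90.5% after thinning.

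The lower lists were also spread over cells. The immediate-early sum had medians of 71 in control and 48 in ACD, with 18.2% of ACD members above the control median, and the glucocorticoid sum 17 and 9, with 11.7% above it. *Tiparp* had a UMI in 73.0% of thinned control and 43.7% of thinned ACD members, and *Nr4a2* in 62.5% and 34.6%. The respiratory chain sum had medians of 48 and 59, with 77.1% of ACD members above the control median. Contractile genes had medians of 91 and 101, with 57.6% above, and genes of the modulated state 42 and 53, with 71.4% above. Matrix genes had medians of 39.5 and 41 but means of 54.5 and 45.1, with highest cells at 423 and 374, so the lower total in ACD was not seen in the median cell. *Actg2* had a UMI in 22.3% and 33.3% of thinned members, against 0% and 0.0884% of thinned chondrocytes.

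**Figure D4:**
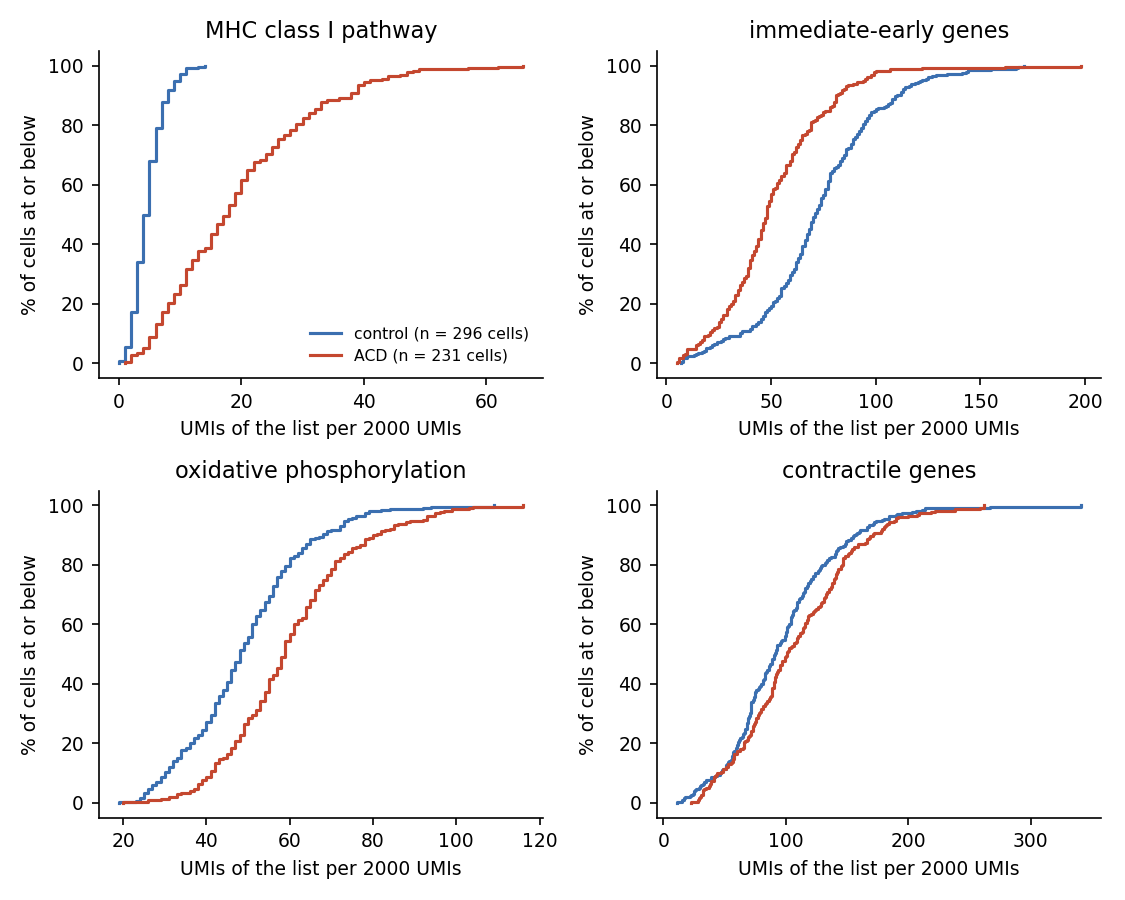
Each curve gives the percentage of VSMC-like cells of a library (y axis) whose summed UMIs of a list, after thinning to 2000 UMIs per cell, are at or below the value on the x axis. The ACD curve lies to the right for MHC class I (medians 5 and 18) and the respiratory chain (48 and 59), to the left for immediate-early genes (71 and 48), and close to control for contractile genes (91 and 101).

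The same genes were then read in 5 other gated cell groups of the 2 libraries, which are pericytes (136 control and 44 ACD cells), endothelial cells (101 and 79), fibroblasts (2450 and 1081), chondrocytes (1728 and 1132) and T/NK/ILC (734 and 3401). The MHC class I list was higher in ACD in every group, with medians of 1.86, 1.93, 1.62, 0.66 and 0.98 in that order beside 1.21 in VSMC-like cells, and so was the GTPase list, with 2.28, 2.83, 1.83, 0.82 and 1.18 beside 2.11. Differences of single genes are given as the log2 ratio in VSMC-like cells minus that in the other group. *H2-D1* had a larger ratio in VSMC-like cells than in all 5 groups, from 0.34 (95% interval 0.25 to 0.42) against chondrocytes to 1.30 (95% interval 1.22 to 1.39) against T/NK/ILC. *Ifitm3* did so as well, from 0.31 (95% interval 0.24 to 0.38) against fibroblasts to 0.45 (95% interval 0.34 to 0.57) against pericytes. *H2-K1* had a smaller ratio than in fibroblasts, by -0.51 (95% interval -0.66 to -0.37), and *Gbp2* than in endothelial cells, by -2.43 (95% interval -3.48 to -1.50). *Psmb8* differed by 1.95 (95% interval 1.16 to 2.77) from pericytes, whose control level was already 72.0, and by 0.42 (95% interval -0.34 to 1.21) from chondrocytes, an interval that includes 0. The 44 ACD pericytes were less pure for some markers. Keratinocyte markers summed to 26.8 in control and 888 in ACD pericytes, myeloid markers to 8.37 and 557 and glial markers to 223 and 867. Fibroblast markers went the other way, from 4506 to 3182.

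Genes with a lower level in ACD were compared in the same way. *Cdkn1a* had a lower log2 ratio in VSMC-like cells than in all 5 groups, from -0.51 (95% interval -0.82 to -0.20) against pericytes to -1.30 (95% interval -1.41 to -1.19) against chondrocytes. *Nr4a2* differed by -1.40 (95% interval -1.55 to -1.26) from chondrocytes and by -1.35 (95% interval -1.51 to -1.20) from T/NK/ILC, where the ratios were 0.21 and 0.15, and by -0.48 (95% interval -1.16 to 0.25) from pericytes, an interval that includes 0. *Tiparp* had a difference of 0.00 (95% interval -0.14 to 0.14) from T/NK/ILC, an interval that includes 0, and a higher one than in pericytes, by 0.52 (95% interval 0.16 to 0.90). *Mt1* differed by 0.01 (95% interval -0.21 to 0.24) from endothelial cells and by -1.28 (95% interval -1.34 to -1.21) from chondrocytes. The glucocorticoid list had medians of -0.49, -0.36, -0.21, 0.11 and -0.43 in the 5 groups beside -0.69, and the immediate-early list -0.64, -0.40, 0.01, 0.10 and -0.42 beside -0.52. The respiratory chain list had 0.35, 0.19, 0.22, -0.01 and 0.10 beside 0.41.

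**Figure D5:**
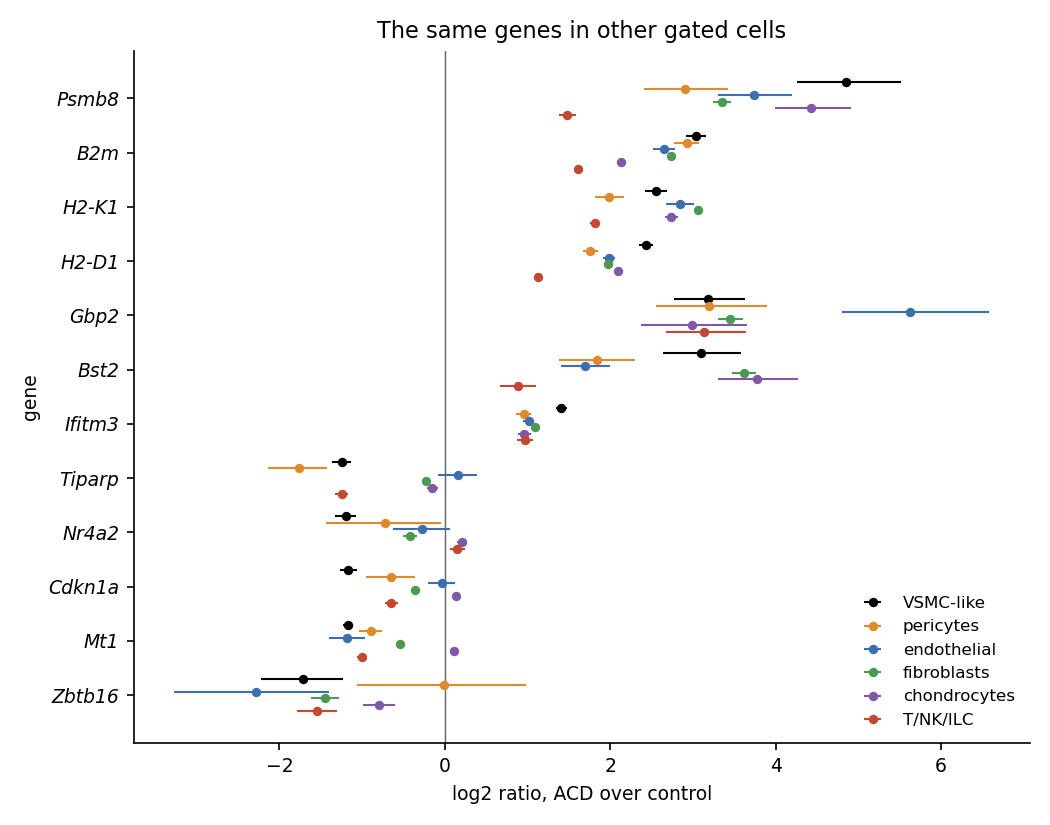
The log2 ratio of ACD over control (x axis) is shown for 12 picked genes in VSMC-like cells and 5 other gated groups, with 95% counting intervals as bars. Interferon-response genes lie to the right of 0 in all groups, while *Cdkn1a* lies furthest left in VSMC-like cells at -1.17 and *Nr4a2* at -1.20.

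Pericytes are the nearest relatives of smooth muscle, and the share of cells that passed their gate was lower in the ACD library. That gate asked for a fixed minimum of UMIs of *Rgs5*, a gene at 10872 in control and 4897 in ACD pericytes. No other pericyte gate was tried, so how far the share depends on the gate was not tested. Gated pericytes made up 1.11% of control (exact interval 0.935 to 1.32%) and 0.377% of ACD cells (0.274 to 0.506%), for a log2 ratio of -1.56 (95% interval -2.09 to -1.06). For VSMC-like cells it was -0.29, which turned to 0.074 under the stricter gate. In both libraries VSMC-like cells had far more *Pdlim3*, at 262 and 259.9 against 3.35 and 3.10 in pericytes, and more *Ppp1r14a*, an inhibitor of myosin phosphatase, at 507 and 663 against 18.4 and 24.8. Pericytes had more *Ifitm1*, at 3694 and 4550.1 against 31.1 and 136, and more *Rgs16*, at 3423 and 1724 against 67.1 and 98.4. These 4 genes were picked, after their values were seen, from the 15 on each side with the largest differences in both libraries. A pericyte gene (*Colec11*, *Abcc9*, *Kcnj8* or *Vtn*) had a UMI in 50 of 296 control and 46 of 231 ACD members. After thinning, *Vtn*, vitronectin, had a UMI in 2.70% and 4.76% of members, 70.0% and 56.8% of pericytes and 0.283% and 0.0598% of T/NK/ILC. *Abcc9* and *Kcnj8*, the potassium channel of pericytes, had log2 ratios of -0.05 (-0.86 to 0.78) and -0.58 (-1.34 to 0.17) in members, with 66.7% and 69.0% of their ACD UMIs in 5 cells. *Steap4* and *P2ry14*, 2 other pericyte markers, had fewer UMIs in ACD members, 12 against 22 and 5 against 7. The remaining pericyte markers had more UMIs in ACD members. *Vtn* had 31 in control and 66 in ACD (log2 ratio 0.78, 0.14 to 1.44), *Colec11* 4 and 30, *Higd1b* 152 and 482 and *Cspg4* 257 and 496, and the sum of the 12 markers was 2648 and 3581 per 1000000. Without the members that carry such a UMI, 246 control and 185 ACD cells remained, and 51 genes were called higher and 83 lower between them.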

How the data were processed

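The deposited files were 10x matrices of counts, 1 per library, that the authors made with Cell Ranger 3.1.0 (file headers and the submitters' processing notes) on the mm10 build. Each value is a UMI count for 1 of 27998 genes in 1 barcode, without normalization.

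The cells kept had over 200 genes but under 5000, up to 25000 UMIs (a limit of the methods, taken here as a maximum) and under 8% mitochondrial UMIs, and members were gated on UMIs of named genes. UMIs were summed over members per library and divided by the library's member total per 1000000. Genes with at least 50 UMIs over both libraries entered, so a gene scarce in 1 library could enter only through the other. A gene was called higher or lower past 2-fold with 10 added to both levels, and the log2 ratios printed carry no addition unless stated. Exact Poisson, Clopper-Pearson and conditional binomial 95% intervals cover counting error only, and differences of log2 ratios were given intervals by combining their limits. The scripts were tested on simulated data. Cells are not replicates, and with 1 library per condition no test was run. The depth of each library's members, 2056257 and 2550741 UMIs, sets the width of these intervals.

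Named genes were the 15 highest and 15 lowest by log2 ratio (10 added) whose interval excludes 0, apart from gate and mitochondrial genes and genes more than 3-fold scarcer than in the other cells, then in each list up to 6 genes past 2-fold and up to 3 of the highest level, pericyte genes, and receptors of the interferon, IL-17, IL-4, IL-1 and TNF families. The members and lists were chosen with earlier results of these data known. Alternatives were other quality limits and gates, doublet removal with Scrublet in scanpy 1.11.5, free RNA subtraction, other scalings, added constants and UMI minimums, and, chosen after seeing the data, leaving out the 5 richest members of each gene. Start regions were matched by symbol to RefSeq annotation of GRCm38.p6, and gene positions come from GENCODE M21. Python 3.11.15 with numpy 2.4.6, scipy 1.17.1, pandas 2.3.3 and matplotlib 3.10.9 was used. One gene is not reported here.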

Additional observations from a re-analysis of the deposited data

Results flagged for a closer look

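*Hbb-bs*, *Hba-a1* and *Hbb-bt*, the globin genes of red cells, differed in sign between the pooled UMIs of VSMC-like cells and fibroblasts. Their log2 ratios of ACD over control were 6.18, 6.19 and 5.71 in VSMC-like cells and -3.48, -3.33 and -3.41 in fibroblasts. In the ACD members 98.4% of the hemoglobin UMIs lay in 5 cells, and without the 5 richest members of each gene none of the 3 was called, with *Hbb-bs* at 0.38 (10 added). *Cdkn1c*, a cell cycle inhibitor, had -2.47 in VSMC-like cells and 0.92 in endothelial cells. *Nr4a2*, an immediate-early nuclear receptor, had -1.20 in VSMC-like cells, 0.21 in chondrocytes and 0.15 in T/NK/ILC. With 1 library per condition, the difference was not tested for any of these genes.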

How the results depend on the processing

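The log2 ratio of the VSMC-like share was -0.29 and turned to 0.074 with the stricter gate. The count of lower genes, 92, was 60 with the gate set after thinning, 54 in members with at most 2 UMIs of other lineages, 49 without Scrublet calls, 57 as a mean over cells and 205 with 1 UMI per 1000000 added. The count of higher genes, 59, was 114 with 1 added. The median of the matrix list, -0.34, was -0.039 with at most 2 UMIs of other lineages and 0.15 without Scrublet calls, that of the contractile list, 0.09, was -0.049 without Scrublet calls, and that of the GTPase list, 2.11, was 2.89 with 1 added. Genes that turned were *Angptl7*, 0.0027 with the stricter gate, *Grasp*, 0.019 with the gate set after thinning, and, without Scrublet calls, *Col1a1* at 0.81, *Col1a2* at 0.40, *Col3a1* at 0.57, *Nupr1* at 0.32 and *Tnfaip6* at 0.43. The cause was not tested. Of the 151 genes called, 121 stayed past 2-fold in the same direction without the 5 richest members of each gene, and 83 of the 116 that could be measured did so without Scrublet calls. The median of all genes ran from -0.10 to 0.00. No paired analysis was possible because each condition had 1 library and the labels give no replicate numbers. Depth limits genes of few UMIs, whose intervals span more than 2-fold.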
